A study of Mus musculus with 3 samples.

Results

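The regions described here are promoter regions of middle width that carry the histone mark H2AK119ub in tongue epithelium and were assigned to a single gene. They were taken from the list of called regions of replicate 1 by 4 criteria: the location class promoter, exactly 1 gene name, a width (last minus first coordinate) of 5 kb to under 20 kb, and an overlap of at least 1 bp with any region of replicate 2. Of 7838 regions in replicate 1, 2701 were in the promoter class, 2202 of these named 1 gene, 1185 of those were 5 kb to under 20 kb wide, and 909 also overlapped replicate 2, which is 11.6% of the list. The 909 members cover 9.66 Mb, or 16.1% of the bases in the replicate 1 list, and carry 895 gene names, of which 830 are protein-coding genes, 47 long non-coding RNAs, 13 microRNAs and 4 transcribed pseudogenes in the RefSeq table. Since members were chosen by called width, class, gene name and overlap, these values are given as descriptions with no test.

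The series holds 2 H2AK119ub chromatin immunoprecipitation libraries, described by the submitters as biological replicates, and 1 input, not analysed here. All 3 came from mice labelled control at postnatal day 0. Tongues were taken without the circumvallate papillae at the back, so that the tissue is labelled non-gustatory, and epithelial cells were sorted by surface EpCAM after enzymatic dissociation and are described as basal. Each library was made from 4 ng of DNA and sequenced on an Illumina NextSeq instrument. The strain, the alleles behind the label control and the number of animals behind each replicate were not given in the sources used here, and no mutant or treated group was compared. The lists hold positions, classes and names only, with no height or score, so the depth of the libraries is unknown and regions could not be ranked by strength.

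H2AK119ub is monoubiquitin on a lysine of histone H2A, placed by the RING1 ubiquitin ligases of Polycomb repressive complex 1 (PRC1). PRC1 acts together with Polycomb repressive complex 2, which methylates histone H3, mostly at CpG-rich promoters of developmental regulators, and the marks are a hallmark of genes kept silent in a given lineage. In skin and tongue epithelium, Polycomb complexes are known for holding back regulators of other lineages and of specialised epithelial cells.

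Promoter sequences are shown for 12 members to give the base composition that such regions span, since the CpG dinucleotide is the sequence feature best known from Polycomb-bound promoters. They are the 250 bases before an annotated transcription start, read 5′ to 3′ in the direction of the gene, from RefSeq on GRCm38.p6, the assembly that mm10 names. Lower case marks all bases except CpG, which stands in capitals. All 12 windows lie inside a region of replicate 1, and 11 lie inside a region of replicate 2. The exception, D930028M14Rik, has a replicate 2 region only in the downstream part of its replicate 1 region.

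The first 4 are the extremes of the CpG observed/expected ratio over the 300-base windows, among members that have a start in the reference inside the region. Grin1 (a subunit of the NMDA receptor) lies at chr2:25319188-25319437 (minus strand) and Fzd9 (a Wnt receptor) at chr5:135251048-135251297 (minus strand). D930028M14Rik, a long non-coding RNA, lies at chr7:25154819-25155068 (plus strand) and Tspan32 (a tetraspanin) at chr7:143004796-143005045 (plus strand).
Grin1: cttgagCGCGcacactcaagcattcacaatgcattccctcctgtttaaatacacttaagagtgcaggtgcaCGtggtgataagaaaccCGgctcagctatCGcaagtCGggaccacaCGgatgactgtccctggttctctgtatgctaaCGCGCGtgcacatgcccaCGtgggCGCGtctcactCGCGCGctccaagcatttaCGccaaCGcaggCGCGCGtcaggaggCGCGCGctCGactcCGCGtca
Fzd9: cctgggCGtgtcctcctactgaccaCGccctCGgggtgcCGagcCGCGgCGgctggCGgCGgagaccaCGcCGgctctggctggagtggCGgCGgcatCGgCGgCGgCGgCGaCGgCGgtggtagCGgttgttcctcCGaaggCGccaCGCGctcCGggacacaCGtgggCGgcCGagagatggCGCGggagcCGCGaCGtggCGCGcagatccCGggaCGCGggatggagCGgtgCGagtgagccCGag
D930028M14Rik: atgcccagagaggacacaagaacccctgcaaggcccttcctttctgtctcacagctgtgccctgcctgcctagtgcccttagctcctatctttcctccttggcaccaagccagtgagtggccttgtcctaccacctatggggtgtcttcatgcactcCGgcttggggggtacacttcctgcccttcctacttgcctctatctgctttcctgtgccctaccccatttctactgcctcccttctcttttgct
Tspan32: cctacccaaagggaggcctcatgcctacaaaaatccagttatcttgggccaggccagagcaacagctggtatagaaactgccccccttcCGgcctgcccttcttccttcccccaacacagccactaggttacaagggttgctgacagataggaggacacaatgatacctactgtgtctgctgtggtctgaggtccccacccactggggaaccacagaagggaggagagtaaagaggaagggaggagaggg
These windows hold 27, 42, 1 and 1 CpG. Their observed/expected ratios over the 250 bases are 1.26, 1.18, 0.0566 and 0.0518. Since the 4 were picked as extremes, they show single members at each end and not the composition of the class.

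The next pair shows the promoters of 2 of the members whose edges differed least between replicates. Myl7 (an atrial myosin light chain) lies at chr11:5898783-5899032 (minus strand) and Zswim5 (a SWIM-domain zinc finger gene) at chr4:116877152-116877401 (plus strand).
Myl7: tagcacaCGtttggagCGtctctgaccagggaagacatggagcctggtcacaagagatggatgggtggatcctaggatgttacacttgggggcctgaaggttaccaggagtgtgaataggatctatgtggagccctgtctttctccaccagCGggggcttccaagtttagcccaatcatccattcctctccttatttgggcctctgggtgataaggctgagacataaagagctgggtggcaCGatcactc
Zswim5: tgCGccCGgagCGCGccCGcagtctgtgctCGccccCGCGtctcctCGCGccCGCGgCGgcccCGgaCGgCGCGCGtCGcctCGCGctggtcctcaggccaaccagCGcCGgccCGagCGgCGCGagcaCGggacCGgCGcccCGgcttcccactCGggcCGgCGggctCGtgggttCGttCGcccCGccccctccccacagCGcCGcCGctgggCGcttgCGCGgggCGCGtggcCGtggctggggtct
Myl7 holds 4 CpG at a ratio of 0.234 and Zswim5 holds 47 at a ratio of 1.13. The members with the closest edges thus include 1 CpG-poor and 1 CpG-rich promoter.

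The last 6 belong to developmental regulators whose regions are described below. Gli2 lies at chr1:119053620-119053869 (minus strand), Scube2 at chr7:109865680-109865929 (minus strand) and Fgf4 at chr7:144861136-144861385 (plus strand). Fgf9 lies at chr14:58072436-58072685 (plus strand), Atoh1 at chr6:64728875-64729124 (plus strand) and Sox2 at chr3:34649745-34649994 (plus strand).
Gli2: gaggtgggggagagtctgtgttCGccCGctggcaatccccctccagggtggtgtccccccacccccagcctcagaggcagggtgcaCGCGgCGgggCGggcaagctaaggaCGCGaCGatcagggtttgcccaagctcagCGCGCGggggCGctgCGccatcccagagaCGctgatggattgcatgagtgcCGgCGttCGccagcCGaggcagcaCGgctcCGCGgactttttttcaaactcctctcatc
Scube2: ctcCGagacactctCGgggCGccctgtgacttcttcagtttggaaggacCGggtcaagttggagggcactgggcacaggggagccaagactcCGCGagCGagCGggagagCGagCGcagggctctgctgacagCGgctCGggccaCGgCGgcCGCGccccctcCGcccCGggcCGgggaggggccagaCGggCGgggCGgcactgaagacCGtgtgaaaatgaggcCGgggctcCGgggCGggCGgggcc
Fgf4: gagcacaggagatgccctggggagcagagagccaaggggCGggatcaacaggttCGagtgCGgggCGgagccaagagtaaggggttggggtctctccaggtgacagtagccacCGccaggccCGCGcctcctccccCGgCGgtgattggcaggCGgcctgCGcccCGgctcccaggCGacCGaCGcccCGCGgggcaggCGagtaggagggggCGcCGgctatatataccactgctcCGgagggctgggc
Fgf9: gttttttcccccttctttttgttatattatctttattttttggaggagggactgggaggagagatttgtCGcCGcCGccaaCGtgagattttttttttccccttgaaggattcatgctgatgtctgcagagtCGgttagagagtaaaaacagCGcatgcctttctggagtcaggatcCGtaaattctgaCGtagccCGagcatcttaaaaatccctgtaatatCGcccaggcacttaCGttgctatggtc
Atoh1: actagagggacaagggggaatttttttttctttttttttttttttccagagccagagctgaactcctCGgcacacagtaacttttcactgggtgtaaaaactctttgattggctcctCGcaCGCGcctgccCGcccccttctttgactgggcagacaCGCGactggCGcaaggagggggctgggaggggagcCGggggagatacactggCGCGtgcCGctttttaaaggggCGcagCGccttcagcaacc
Sox2: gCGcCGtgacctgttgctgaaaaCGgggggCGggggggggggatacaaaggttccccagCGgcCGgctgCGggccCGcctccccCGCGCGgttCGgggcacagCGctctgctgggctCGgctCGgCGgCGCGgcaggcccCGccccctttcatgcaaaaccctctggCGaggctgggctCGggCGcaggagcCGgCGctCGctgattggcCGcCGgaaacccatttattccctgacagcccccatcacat
These 6 windows hold 22, 27, 21, 11, 14 and 27 CpG, with observed/expected ratios from 0.675 (Fgf4) to 0.879 (Fgf9). Over 32851 windows of the same length in the reference, the median number of CpG was 6.0 (quartiles 2.0 and 16) and the median ratio was 0.373 (quartiles 0.167 and 0.723), and 92.1% held at least 1 CpG. The G+C content of the 6 windows ran from 44.8% in Fgf9 to 73.6% in Scube2, beside a median of 52.4% over all windows. Further motifs were searched on both strands. TATAAA was in none of the 12 windows and in 12.4% of all windows. CCAAT was in Myl7, Fgf4, Atoh1 and Sox2 and in 33.8% of all windows. GGGCGG, whose central CG is counted among the CpG as well, was in Fzd9, Zswim5, Gli2, Scube2, Fgf4, Atoh1 and Sox2, with 5 matches in Scube2, and in 32.7% of all windows. Starts were matched inside the region for 534 members, and 653 member genes (73.0%) had a promoter sequence, under the 80% needed for a check over the whole set, so a summary of CpG content over the members would be void and is not given.

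Overlap with replicate 2 chose the members, and its rate depended on width. Among single-gene promoter regions, 76.7% of those of 5 kb to under 20 kb overlapped replicate 2, beside 55.4% of the narrower ones, 93.0% of the broader ones, 73.7% of all promoter regions and 61.1% of all regions. Which class and which gene the replicate 2 region carried was not part of the rule, but an overlapping region lies at the same locus. Agreement in class and name is therefore tied to the overlap that the rule required and is not independent of it. In 811 of 909 members (89.2%, 95% interval 87.0 to 91.2) a promoter region of replicate 2 that overlapped the member named the same gene, beside 90.9% of shared single-gene promoter regions of any width. It named that gene alone in 785 members (86.4%). Intervals here and below are exact (Clopper-Pearson) and cover counting error over regions only. Regions of 1 library are not replicates of a condition, and with 2 libraries of 1 group no test over samples was possible.

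Members were on the whole narrower in replicate 2. The median width was 10.1 kb in replicate 1 (quartiles 7.25 and 13.4) and 8.24 kb for the widest overlapping region of replicate 2 (quartiles 5.07 and 12.1), and the median ratio of the second to the first was 0.825 (quartiles 0.552 and 1.10). Replicate 2 was the wider in 300 members (33.0%), beside 38.7% of shared single-gene promoter regions of any width. Its width was within a factor of 2 in 685 members (75.4%). The replicate 2 region was itself 5 kb to under 20 kb wide in 639 members (70.3%), narrower in 216 (23.8%) and broader in 54 (5.94%). With the replicates exchanged, 887 regions met the rule, and their median ratio of replicate 1 to replicate 2 width was 1.08, so replicate 1 was again the wider but by less.

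**Figure D1:**
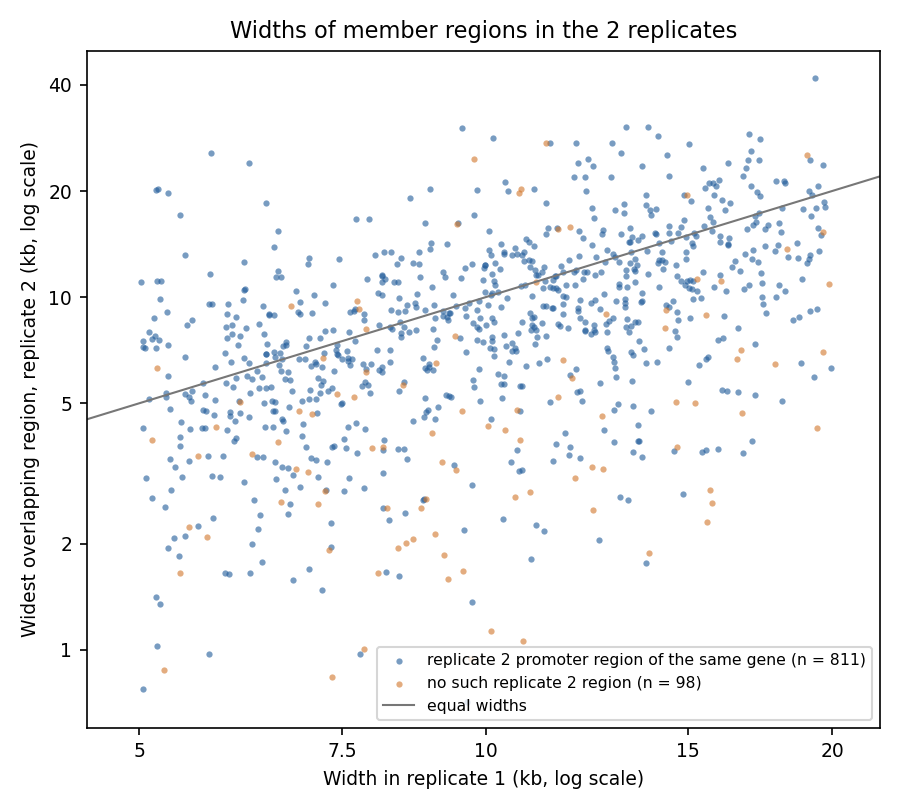
Each point is 1 of the 909 member regions, with its width in replicate 1 on the x axis and the width of the widest overlapping region of replicate 2 on the y axis, both in kb on log scales. Blue points (811) have a replicate 2 promoter region of the same gene and orange points (98) do not, and more points lie under the line of equal widths than above it, with 300 members wider in replicate 2.

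Edges moved by a few kb between replicates. Both edges lay within 1 kb in 113 members (12.4%, 95% interval 10.4 to 14.8), beside 17.5% of shared single-gene promoter regions of any width. The median difference was 1.6 kb at the left edge and 2.0 kb at the right edge. Replicate 2 regions covered a median of 74.4% of a member's bases (quartiles 49.6 and 93.2), at least 50% of the bases in 677 members (74.5%) and at least 90% in 280 (30.8%). Over shared single-gene promoter regions of any width, these 2 shares were 78.5% and 35.8%. In 89 members (9.79%) 2 or more replicate 2 regions overlapped the member, beside 9.78% of shared single-gene promoter regions of any width. In 1 of the 89, over the uncharacterised gene 1700125G02Rik, there were 3. In 102 members (11.2%) the replicate 2 region also reached another region of replicate 1.

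The 98 members without the same gene in an overlapping promoter region of replicate 2 were less well covered. Replicate 2 covered a median of 28.9% of their bases, beside 79.4% for the other 811, and under 50% in 74 of them. Their replicate 1 widths were close to those of the others, with medians of 9.55 and 10.2 kb, while their replicate 2 widths had medians of 4.28 and 8.62 kb. The overlapping replicate 2 region was classed as gene body in 50, distal in 39, promoter in 7, intergenic in 1 and a mix of distal and promoter in 1. A replicate 2 region of any class still named the gene in 78 of the 98, and a promoter region that did not touch the member named it in 6. Gene body and distal classes thus made up most of the 98.

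Within the class, wider members met several replicate 2 regions more often. The bins below were cut on replicate 1 width, and a longer region has more room to meet several regions. Trends over the bins in regions met, edges and relative width are therefore tied to the binning and are descriptions only. The members were 250 regions of 5 to under 7.5 kb, 191 of 7.5 to under 10 kb, 323 of 10 to under 15 kb and 145 of 15 to under 20 kb. In that order, 2 or more replicate 2 regions overlapped 4.4%, 6.81%, 11.8% and 18.6% of members, and both edges lay within 1 kb in 18%, 13.6%, 9.91% and 6.90%. The share that was wider in replicate 2 went from 36.8% to 34.6%, 31.9% and 26.9%. By contrast the median share of bases covered was nearly level, at 73.5%, 73.4%, 74.9% and 76.7%, and the share with the same gene in replicate 2 had no order, at 90.8%, 84.8%, 91.0% and 88.3%.

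Narrower and broader single-gene promoter regions are set beside the members here. The 3 classes were cut on replicate 1 width. Differences in width ratio and in the number of replicate 2 regions met are therefore tied to that cut and are descriptions only. The 429 shared regions under 5 kb had a median coverage of 87.0% and were wider in replicate 2 in 254 cases (59.2%), with a median width ratio of 1.16. Of these, 2 (0.466%) met 2 or more replicate 2 regions. The 226 shared regions of 20 kb or more had a median coverage of 84.0% and a median width ratio of 0.821, and 62 of them (27.4%) met 2 or more replicate 2 regions. Members thus had the lowest median coverage of the 3 width classes, while their share of split regions lay between the others. The same gene was named in replicate 2 for 405 narrow regions (94.4%, 95% interval 91.8 to 96.4) and 205 broad ones (90.7%, 86.1 to 94.2).

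**Figure D2:**
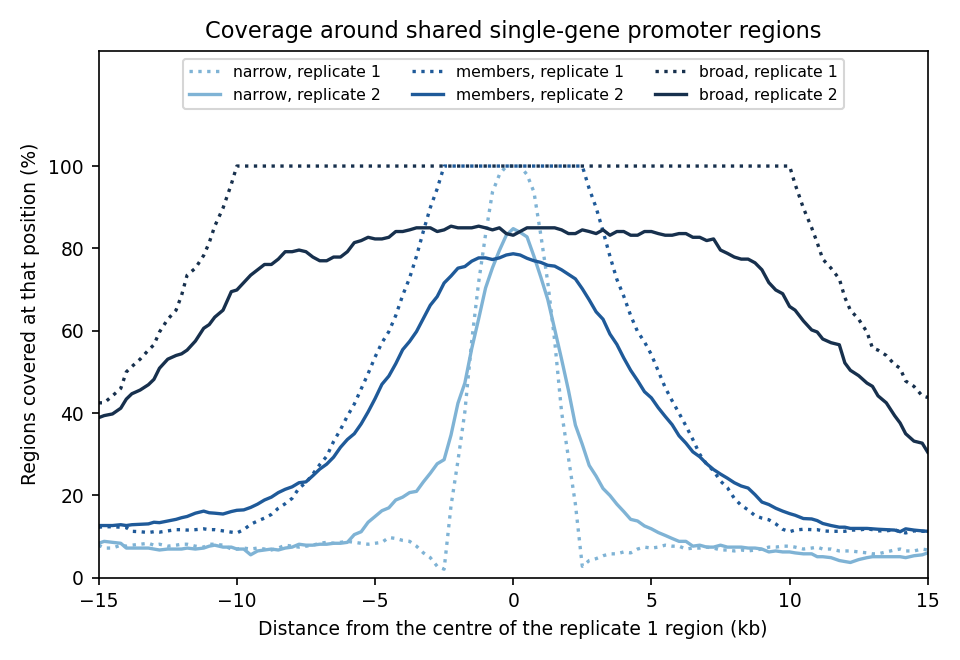
Share of regions (y axis, %) covered at each distance (x axis, kb) from the centre of the replicate 1 region, for narrow (429), member (909) and broad (226) single-gene promoter regions that overlap replicate 2. Dotted lines are replicate 1, which defines the centre, and solid lines replicate 2, in which members are covered in 78.7% at the centre and in 43.5% and 43.7% at 5 kb to the left and right. In replicate 1, members are covered in 53.6% and 54.2% at 5 kb.

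Coverage by replicate 2 was highest in the middle of the members. It was 78.7% at the centre, 71.6% and 70.2% at 2.5 kb to the left and right, 43.5% and 43.7% at 5 kb, and 16.4% and 15.6% at 10 kb. In replicate 1, coverage was 100% out to 2.5 kb, 53.6% and 54.2% at 5 kb, and 10.9% and 11.2% at 10 kb. Beyond 2.5 kb the fall therefore includes members that had already ended, which the width limits fixed. The profile was symmetrical along the chromosome to within a few percentage points. At the centre, narrow and broad regions were covered in 84.8% and 83.2%.

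Most members reached an end of their gene. An end of the named gene lay inside 707 of the 906 members whose gene has bounds on the same chromosome (78.0%, 95% interval 75.2 to 80.7), beside 33.9% of narrow and 89.8% of broad regions. The whole gene lay inside 159 members (17.5%), beside 2.10% of narrow and 48.2% of broad regions. A wider region has more room for a gene end or a whole gene, so these shares are tied to the width classes. A median of 54.8% of a member's bases lay within the gene's bounds (quartiles 30.4 and 78.6), and a median of 23.5% of the gene lay within the member (quartiles 5.94 and 77.4). Over the 4 width bins the covered share of the gene had medians of 11.0%, 13.8%, 36.3% and 44.3%, while median gene lengths were 27.0, 27.6, 17.9 and 17.6 kb, so the wider members lay over genes of shorter median length. In 122 members (13.4%) an end of a second protein-coding gene also lay inside, although the list named 1 gene. The share was 11.1% over shared single-gene promoter regions of any width, 5.36% for narrow and 12.8% for broad ones.

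Single members show how the regions sit on their genes. Gli2, a transcription factor at the end of the Hedgehog pathway, had a region at chr1:119046229-119059615 in replicate 1 and chr1:119045774-119059222 in replicate 2, which reached 6.0 kb before and 7.39 kb past an annotated start of a gene of 220 kb. Fgf4, a growth factor of limb and embryo, lay whole inside its region at chr7:144858088-144869012, and its gene length is 3.86 kb. Atoh1, the determinant of hair cells and Merkel cells, was likewise enclosed at chr6:64726619-64737052. Over Pdgfra, a growth factor receptor of mesenchyme, the region at chr5:75137295-75156744 reached 15 kb before the start and 4.49 kb past it. The Lef1 region reached 14.9 kb before and 1.75 kb past the start of this Wnt effector. Placement was therefore not fixed with respect to the start. At Bmp7, a bone morphogenetic protein, the region at chr2:172941250-172956042 lay beyond the gene's bounds altogether, whereas at Axin2, a feedback inhibitor of Wnt signalling, it lay inside the gene in full.

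**Figure D3:**
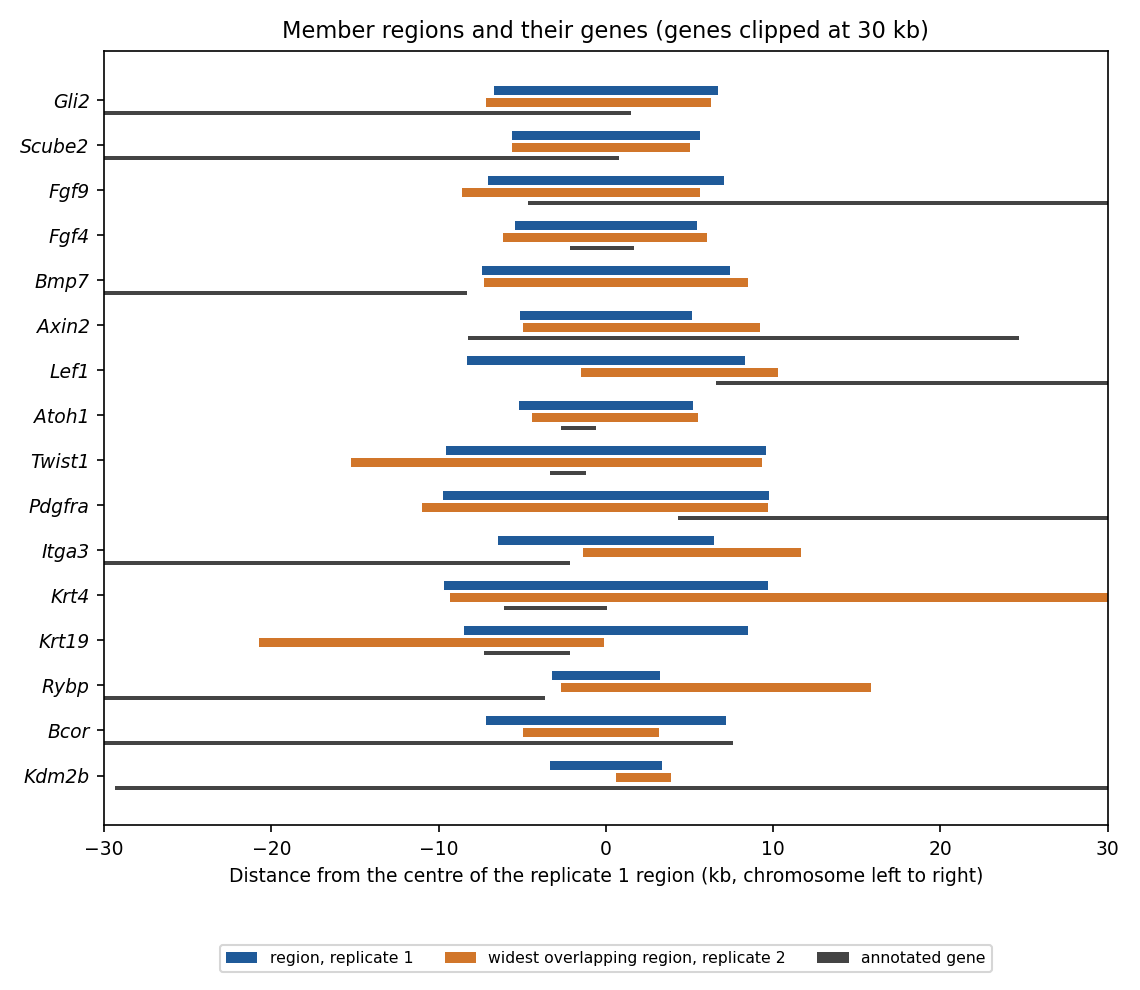
Member regions of 16 genes in replicate 1 (blue) and the widest overlapping region of replicate 2 (orange), with the annotated gene (grey), by distance in kb from the centre of the replicate 1 region, drawn left to right along the chromosome and clipped at 30 kb. The 2 bars nearly coincide at Gli2 and Scube2, while at Krt19 and Kdm2b replicate 2 covers 49.3% and 41.4% of the region.

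A pair of member regions belonged to each of 14 genes, separated by gaps of 1.00 to 23.7 kb with a median of 1.34 kb. In 6 of these 14 genes, 1 region of replicate 2 ran over both. Among them were Irx3 (12.2 and 12.9 kb, joined as 21.9 kb), Nfam1 (13.8 and 13.2 kb, joined as 30.3 kb), Sox9 (8.27 and 8.15 kb, joined as 13.4 kb), Tbx3 (16.3 and 6.23 kb, joined as 24 kb) and Zfp703 (5.19 and 8.95 kb, joined as 20.3 kb). Irx3, Sox9 and Tbx3 are transcription factors of patterning and lineage choice, and all 3 would be a single region if gaps of under 2 kb were bridged. The other 8 were Bc1, C77080, Dusp4, Iffo2, Mlxipl, Pik3cd, Trim36 and Zcchc14. Replicate 2 named the same gene over both regions in 12 of the 14, with Bc1 and Dusp4 as the exceptions.

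The closest edges between replicates were at Myl7, with widths of 9.43 and 9.44 kb and edges that differed by 0.0520 kb in sum. Rn45s (6.45 and 6.49 kb), Zswim5 (10.1 and 10.1 kb), Dleu2 (14.9 and 14.8 kb), Snph (5.56 and 5.43 kb) and Syt9 (8.30 and 8.14 kb) followed. Rn45s is the ribosomal RNA precursor, present in many near-identical copies, so reads at this locus cannot be assigned to it with certainty. Snph and Syt9 encode neuronal proteins of membrane traffic and mitochondrial anchoring. The replicate 2 region was widest relative to replicate 1 at Rtbdn (5.77 and 25.6 kb, ratio 4.45), Zfp703 (ratio 3.90), the Polycomb-associated gene Epop (5.17 and 20.1 kb, ratio 3.89), the second Tbx3 region (ratio 3.85) and Mal (5.29 and 19.8 kb, ratio 3.74). It was narrowest at Fmnl3 (9.63 and 0.710 kb, ratio 0.0737), Fa2h (9.72 and 0.942 kb), Pou6f1 (10.8 and 1.06 kb), Lrrc4 (10.1 and 1.13 kb) and Susd6 (7.35 and 0.838 kb).

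The width limits fell within a continuous spread. Just inside the lower limit were Stum (5015 bp), Fgfr4 (5036 bp) and Sstr1 (5037 bp), with 11.0, 7.53 and 4.26 kb in replicate 2. Just outside it were Spire2 (4994 bp), Gamt (4995 bp) and Mmp25 (4998 bp), with 4.83, 9.74 and 7.59 kb. At the upper limit, 4933432I09Rik (19703 bp), Tle4 (19861 bp) and Gas2l2 (19962 bp) were inside, with 18.1, 10.9 and 6.31 kb in replicate 2. The regions of 6330409D20Rik (20101 bp), Nr5a2 (20145 bp) and Pitpnm3 (20169 bp) were outside, with 10.2, 16 and 5.79 kb. Replicate 2 widths overlapped between the regions inside and outside each limit.

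Families of genes were counted over 21627 autosomal and X-linked protein-coding genes, of which 830 (3.84%) were named by a member. The lists follow gene symbols and were drawn up with earlier results of these data known, so the counts are set beside that background without a test. Transcription factor families had 88 members among 856 genes (10.3%), signalling families 28 among 228 (12.3%), cell surface and neural families 84 among 931 (9.02%), matrix and epithelial families 20 among 234 (8.55%) and chromatin and growth control families 15 among 140 (10.7%). Ribosomal, proteasome and respiratory genes had 2 members among 200 (1.00%), and olfactory and vomeronasal receptor genes had 0 among 1459 (exact 95% interval up to 0.253%).

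**Figure D4:**
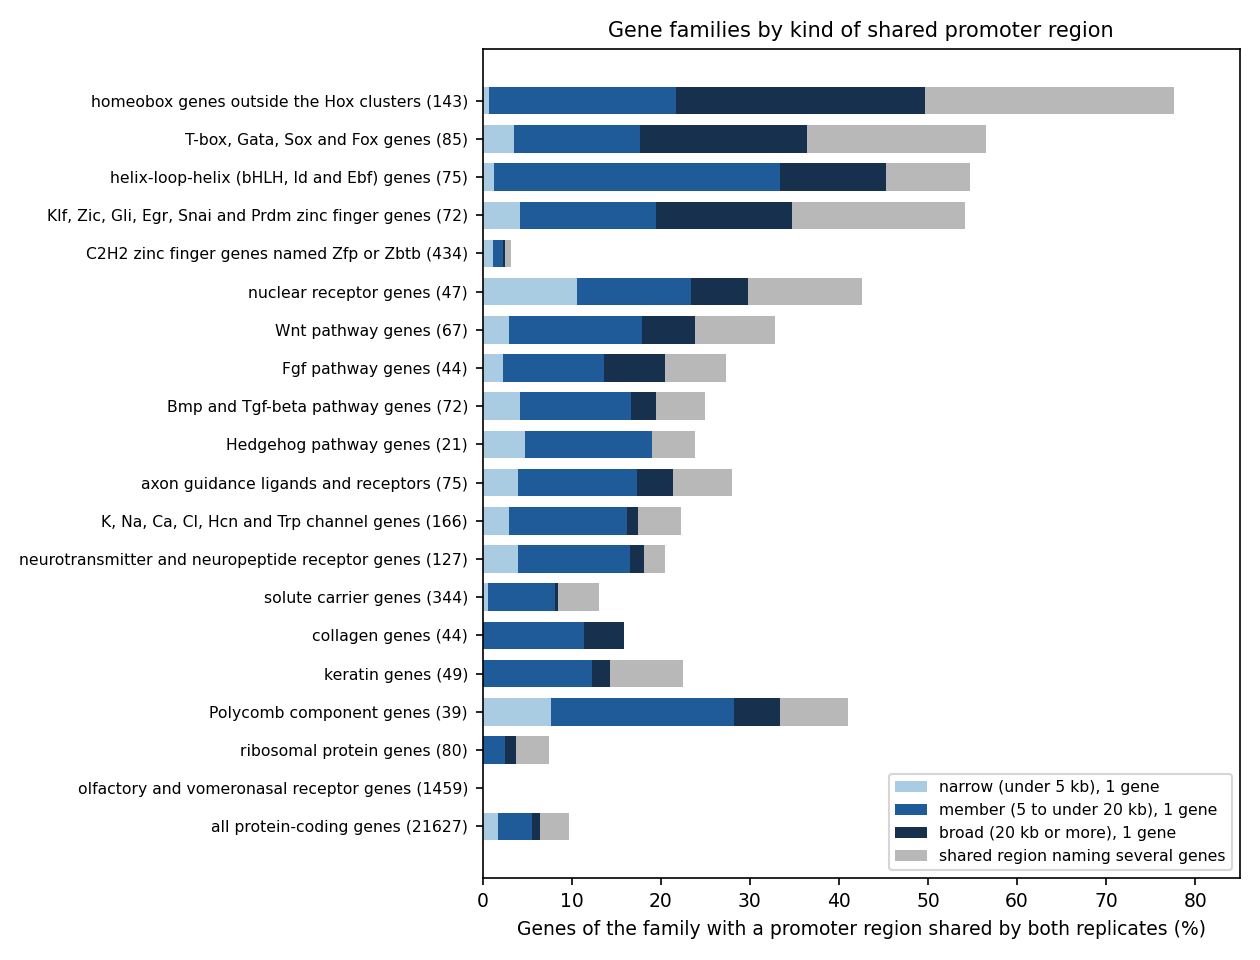
Share of the genes of each family (x axis, %) with a promoter region shared by both replicates, split into narrow, member and broad single-gene regions and shared regions that name several genes. Numbers in brackets are genes per family, and members make up 32% of helix-loop-helix genes, 21.0% of homeobox genes outside the Hox clusters and 3.84% of all protein-coding genes.

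Among transcription factors, homeobox genes outside the Hox clusters, which pattern organs and the nervous system, had 30 members of 143 (21.0%). Another 40 of them had a broad region and 40 a shared region that names several genes, so members were the smaller part of the marked family. The 31 member regions had median widths of 13.5 and 13.6 kb in replicates 1 and 2, beside 10.1 and 8.25 kb over the members of all protein-coding genes. Replicate 2 named the same gene in 30 of the 31, beside 89.2% of all 909 members, which is the background for such counts in the families below too. Alx4, a craniofacial and limb regulator, measured 17.3 and 19.4 kb. The forebrain regulators Emx1, Otx1 and Lhx5 measured 17.2 and 17.0 kb, 16.9 and 24.4 kb, and 17.5 and 15.7 kb, and Irx1 measured 16.7 and 22.1 kb. Genes named as exceptions here and below were picked after their values were seen.

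The helix-loop-helix genes (bHLH, Id and Ebf), which include determinants of neurons, muscle and sensory cells, had the highest share of members of the 29 families, with 24 of 75 (32%). A further 9 had a broad region and 1 a narrow one. Median widths were 14.7 kb in replicate 1 and 11.2 kb in replicate 2, and 23 of 24 regions had the same gene in replicate 2. Twist1, a regulator of mesenchyme, measured 19.1 and 24.6 kb, Tcf21 15.8 and 16.3 kb, Ebf2 15.8 and 21.1 kb, Olig1 15.1 and 18.7 kb and Atoh8 14.9 and 19.5 kb. Each of these 5 was wider in replicate 2, but they were picked for the largest value of the smaller width of both replicates. Over the family, 10 of 24 regions were wider in replicate 2, beside 33.0% of all 909 members. Atoh1 measured 10.4 and 9.93 kb with 92.3% of its bases covered. Hes1, the repressor induced by Notch signalling, was the exception, with 7.43 kb in replicate 1 and a distal region over 7.90% of its bases in replicate 2.

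T-box, Gata, Sox and Fox genes had 12 members of 85 (14.1%) in 14 regions, whose median coverage by replicate 2 was 95.1%. Of the 14 regions, 10 were wider in replicate 2, beside 33.0% of all 909 members. These 10 are not separate widenings. They include the 2 Sox9 regions, which met the same replicate 2 region, and the 2 Tbx3 regions, which also met a single one. Sox2 is among the 10 only through a neighbouring region. Sox14 measured 17.9 and 21.4 kb, the heart and forelimb regulator Tbx5 17.2 and 16.3 kb, Sox7 17.3 and 17.3 kb, and Foxb2 17.6 and 16 kb. The first of the Tbx3 regions is given above. Sox2, a regulator of progenitors of taste buds and of the tongue surface, had 6.42 kb in replicate 1. In replicate 2 the region that names Sox2 measured 2.92 kb, and the widest overlapping one, of 7.85 kb, was a neighbouring region over Mir1897. Foxa1, a pioneer factor of endoderm, was the exception with regions of 9.54 and 4.75 kb, the latter classed as distal.

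Zinc finger genes were divided. Klf, Zic, Gli, Egr, Snai and Prdm genes, which include many developmental regulators, had 11 members of 72 (15.3%), and replicate 2 named the same gene in all 11. Fezf2, a determinant of cortical projection neurons, measured 19.2 and 19.4 kb, Egr3 14.4 and 25.2 kb, Sall4 15.1 and 14.2 kb, Gli2 13.4 and 13.4 kb, and the germ cell regulator Prdm14 9.96 and 12.1 kb. The large family of genes named Zfp or Zbtb had 5 members of 434 (1.15%), below the 3.84% over all protein-coding genes, and 84.8% were named by no region, beside 73.4% of all protein-coding genes. Among the 5, Zfp423 measured 17.3 and 28.2 kb, Zfp536 13 and 9.78 kb and Zfp521 12.9 and 6.76 kb.

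Nuclear receptors, the ligand-regulated factors for steroids and lipids, had 6 members of 47 (12.8%), and replicate 2 named the same gene in all 6. Nr4a3 measured 16.2 and 14.2 kb, the adrenal and gonadal regulator Nr5a1 11.1 and 11.5 kb, Esrrg 9.98 and 10.4 kb, the estrogen receptor Esr1 9.26 and 8.81 kb, and the fatty acid sensor Ppara 6.41 and 9.45 kb. Median coverage by replicate 2 was 91.4%.

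Signalling families came near the transcription factors in their share of members, and their regions were covered to a median of 91.4% by replicate 2. In the Wnt pathway, 10 of 67 genes (14.9%) were members, and they held ligands, a receptor, nuclear effectors and inhibitors. Among the ligands, Wnt1 measured 12 and 27.3 kb, Wnt2b 10.4 and 13.4 kb and Wnt16 14.4 and 9.37 kb. The receptor Fzd9 had nearly equal regions of 5.27 and 5.19 kb with 95.4% of its bases covered. The effectors Lef1 and Tcf7 measured 16.6 and 11.8 kb and 12.8 and 8.54 kb, both narrower in replicate 2. Among the inhibitors, Nkd1 measured 11.4 and 10.7 kb, Wif1 10.1 and 10.3 kb and Axin2 10.3 and 14.2 kb. Sfrp2, a secreted Wnt antagonist, was the exception, since its 15.6 kb in replicate 1 met a gene-body region of 2.3 kb in replicate 2.

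Of 44 Fgf pathway genes, 5 were members (11.4%), and replicate 2 named the same gene in all 5. It was wider in 4 of the 5, beside 33.0% of all 909 members. The ligands Fgf9, Fgf4 and Fgf18 measured 14.1 and 14.2 kb, 10.9 and 12.2 kb, and 5.22 and 11.1 kb. The receptor Fgfr4 measured 5.04 and 7.53 kb, and the inhibitor Spry4, the one that was narrower in replicate 2, 11.3 and 6.69 kb. Median coverage of the 5 regions was 100%.

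The Bmp and Tgf-beta lists had 9 members of 72 (12.5%), each with the same gene in replicate 2. The ligands Bmp7, Gdf11 and Gdf7 measured 14.8 and 15.8 kb, 13.7 and 14.9 kb, and 14.3 and 12.6 kb. Narrower regions lay over the ligands Gdf1 (6.26 and 5.87 kb) and Bmp8a (5.82 and 6.32 kb), the antagonist Fst (6.75 and 4.87 kb) and the transducer Smad9 (5.79 and 3.11 kb). The receptors Acvrl1, of blood vessels, and Amhr2, of the reproductive tract, measured 12.1 and 8.73 kb and 7.33 and 2.28 kb.

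Of 21 Hedgehog pathway genes, 3 were members (14.3%). Gli2 measured 13.4 kb in both replicates. Scube2, which helps release the lipid-bearing ligand, lay at chr7:109859299-109870521 and measured 11.2 and 10.6 kb with 94.4% of its bases covered. Hhatl, an acyltransferase-like gene of heart and muscle, measured 10.4 and 4.19 kb, and its replicate 2 region was classed as gene body. Of 24 Notch pathway genes, the ligand Dll1 was the 1 member (4.17%), with 10.5 and 13.2 kb.

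**Figure D5:**
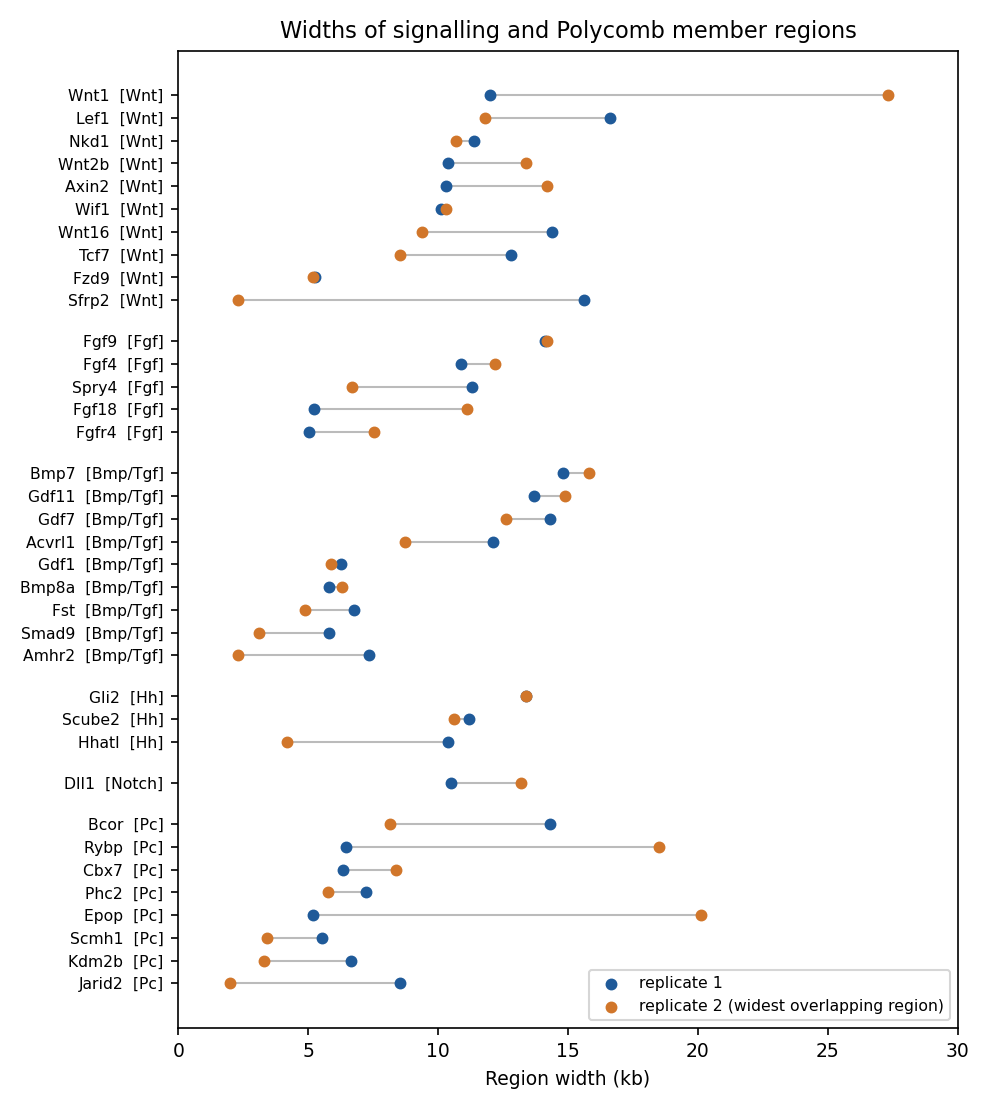
Widths in kb (x axis) of member regions of the Wnt, Fgf, Bmp/Tgf, Hedgehog (Hh), Notch and Polycomb (Pc) lists, with replicate 1 in blue and the widest overlapping region of replicate 2 in orange, joined by a line. At Gli2 the points coincide at 13.4 kb, and the longest lines are at Wnt1, Epop and Sfrp2.

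Cell surface and neural genes made up the largest number of members by class after the transcription factors. Potassium, sodium, calcium, chloride, Hcn and Trp channel genes, voltage-gated or not, had 22 members of 166 (13.3%). Replicate 2 named the same gene in all 22, beside 89.2% of all members. The potassium channel Kcnh3 measured 19.1 and 12.9 kb and the calcium channel Cacna1h 9.98 and 12.3 kb. Neurotransmitter and neuropeptide receptors had 16 members of 127 (12.6%), again all 16 with the same gene. The NMDA receptor subunit Grin2c measured 19.7 and 23.6 kb, the adrenergic receptors Adrb1 and Adra2a 19.2 and 17.0 kb and 11.0 and 12.7 kb, and the serotonin receptors Htr1d and Htr6 13.9 and 17.6 kb and 12.7 and 10.2 kb. No region named 51.8% and 64.6% of the genes of these lists, beside 73.4% of all protein-coding genes.

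Axon guidance genes had 10 members of 75 (13.3%), and replicate 2 named the same gene in 8. The ephrins Efna3 and Efnb3 measured 16.8 and 23.3 kb and 9.60 and 9.33 kb. Their receptors Ephb1 and Ephb2 measured 15.7 and 16.9 kb and 17.5 and 13.9 kb, and the semaphorin receptor Plxnd1 12.4 and 17.9 kb. The exceptions were the netrin receptor Unc5a (15.7 and 2.83 kb) and the semaphorin receptor Plxnc1 (7.25 and 2.82 kb). Solute carriers had 26 members of 344 (7.56%), with the same gene in 23 regions. The potassium-chloride cotransporter Slc12a7 measured 13.8 and 19.5 kb, the lactate exporter Slc16a3 17.8 and 13.5 kb, Slc41a2 12.3 and 24.7 kb, Slc4a5 16.2 and 10.4 kb and the glial glutamate transporter Slc1a2 12.3 and 9.65 kb. Slc22a12, Slc48a1 and Slc47a2 lacked the same gene in replicate 2.

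Cadherins and protocadherins stood at 4 members of 118 (3.39%), close to the 3.84% of all protein-coding genes. Pcdh12 measured 10.3 and 9.41 kb, Cdh11 8.91 and 4.79 kb, Cdh13 15.4 and 3.64 kb and Cdh6 6.37 and 2.40 kb, so each of the 4 was narrower in replicate 2. Among all 909 members 33.0% were wider in replicate 2, so a narrower region was the more common case. Receptors named Gpr or Adgr had 6 members of 101 (5.94%), such as Adgrb1 (14.1 and 28.7 kb) and Gpr27 (12.9 and 13.3 kb).

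Among matrix genes, 5 of 44 collagens (11.4%) were members, and replicate 2 named the same gene in all 5 with a median coverage of 50.1%. The cartilage collagens Col2a1 and Col9a3 measured 19.1 and 20.1 kb and 12.6 and 15.5 kb. Col7a1, the anchoring fibril collagen beneath stratified epithelia, measured 12.4 and 7.96 kb, Col26a1 6.70 and 7.32 kb and Col14a1 6.93 and 4.37 kb. Integrins and laminins had 2 members of 36 (5.56%, 95% interval 0.680 to 18.7), and this interval includes the 3.84% of all protein-coding genes. The 2 were Itga3 (13 and 13 kb, with 60.4% covered, since the replicate 2 region was shifted) and Itga9 (7.29 and 5.42 kb). The proteases Adamts8 (11.7 and 11.8 kb), Adamts15 (10.6 and 13.7 kb) and Adamts7 (7.85 and 5.75 kb) were the 3 members among 58 Adam and Adamts genes. Their share was 5.17% (95% interval 1.08 to 14.4), which also includes 3.84%.

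Keratins, the intermediate filaments of epithelial cells, had 6 members of 49 (12.2%), and their median coverage by replicate 2 was the second lowest of the families with members, at 40.5%. Krt4, a keratin of the suprabasal tongue and oesophagus, lay whole inside a region of 19.3 kb at chr15:101915002-101934320, which became 41.8 kb in replicate 2, the widest replicate 2 region over any member. An end of Krt79 also lay inside the Krt4 region. Krt19, of simple and taste epithelium, measured 17.0 and 20.6 kb, but the replicate 2 region was displaced and covered 49.3% of the member. The hair and nail keratin Krt84 measured 8.13 and 11.1 kb. Krt72, Krt27 and Krt2, keratins of hair follicle and cornifying epithelium, were narrower in replicate 2, with 15 and 5.75 kb, 8.14 and 3.75 kb, and 8.19 and 1.66 kb, and Krt27 lacked the same gene there. Claudins had 2 members of 23, Cldn14 (13.3 and 8.67 kb) and Cldn23 (5.04 and 7.23 kb).

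Genes of stratified epithelium and its basal cells had 3 members of 35 (8.57%), Itga3, Dst and Ovol2. Dst, which encodes the hemidesmosomal plakin, had a region of 8.12 kb inside its gene of 401 kb and 6.35 kb in replicate 2, and the epithelial repressor Ovol2 measured 5.44 and 4.44 kb. Of 11 epithelial markers, 0 were members. A shared region naming several genes covered 1 of them, 3 had a promoter region in 1 replicate, and 7 (among them Krt14, Trp63, Epcam and Cdh1) were named by no region, as were 73.4% of all protein-coding genes. Of 10 mesenchymal markers, 4 were members: Pdgfra (19.4 and 20.7 kb), Twist1 (19.1 and 24.6 kb), Prrx1 (12.1 and 9.82 kb) and Vim (6.16 and 10.4 kb). Another 4 of the 10 were named by no region, 1 had a shared region naming several genes and 1 had a promoter region in 1 replicate. Of 5 skeletal muscle markers, Myod1 was a member (6.19 and 8.19 kb), 2 had regions of other classes only and 2 were named by no region. Of 5 endothelial, 5 immune and 7 neural and glial markers, 0 were members, beside 3.84% of all protein-coding genes. Of these, 1 endothelial marker had a broad region, 1 immune marker a narrow one and 3 neural and glial markers shared regions naming several genes. The lists measure the mark and not expression, so the markers do not show which cell types the sort held.

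Polycomb component genes were themselves among the members, with 8 of 39 (20.5%). Cbx7, a chromodomain subunit of PRC1, measured 6.35 and 8.38 kb with all of its bases covered, and Phc2, a polyhomeotic subunit, 7.21 and 5.76 kb. Rybp, a subunit of variant PRC1, measured 6.44 and 18.5 kb, and Bcor and Kdm2b, subunits of a variant complex, 14.3 and 8.15 kb and 6.66 and 3.30 kb. Scmh1, another Polycomb group protein, measured 5.52 and 3.43 kb. The regulators of Polycomb repressive complex 2 were Epop (5.17 and 20.1 kb) and Jarid2 (8.52 and 2.01 kb). Replicate 2 named the same gene in 6 of the 8, with Bcor and Jarid2 as the exceptions. The regions named for Rybp, Jarid2, Phc2 and Scmh1 lay outside the gene's bounds in full.

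Cyclins, Cdks and their inhibitors had 3 members of 42 (7.14%, beside 3.84% of all protein-coding genes), and replicate 2 named the same gene in 1 of 3. Ccnd1, the cyclin that drives entry into S phase, measured 12.1 and 5.06 kb with 34.6% covered, Ccnd3 9.21 and 1.85 kb, and Cdk18 7.76 and 9.27 kb. GTPase regulators named Arhgap or Arhgef had 4 members of 59 (6.78%). One of them, Arhgap9, a gene of blood cells, lay at chr10:127322448-127334926 with 12.5 and 13 kb, and an end of Gli1, a Hedgehog target named by no region, lay inside it. The 2 ribosomal protein genes were Rpl10a (12.6 and 11.8 kb) and Rpl38 (6.16 and 6.70 kb).

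Several other genes looked up by name had a marked promoter but were kept out by the rule. Shh, Chrd, Fgf8, Fgf11, Krt13, Cbx6, Pcgf1, Nefm and Ovol1 had shared promoter regions that name several genes, such as 19.1 and 27.0 kb over Shh and 18.9 and 20.5 kb over Fgf8. The ligand genes Wnt11 (28.2 and 24.4 kb), Wnt3 (24.6 and 20 kb), Inhbb (21.8 and 17.5 kb) and Gdf6 (21.9 and 10.8 kb) had broad regions in replicate 1. Car4, a carbonic anhydrase of taste cells, had a narrow one (4.35 and 4.02 kb). Krt5, a keratin of basal cells, was named by 1 promoter region, 14.9 kb wide, which was in replicate 2 and not in replicate 1.

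MicroRNA genes gave 13 members, 9 of them with the same gene in replicate 2. Mir802 had widths of 12 and 12 kb with 94.3% of its bases covered, and its mature 5p sequence is shown, with the seed (bases 2 to 8) in capitals, as the example with close widths.
mmu-miR-802-5p: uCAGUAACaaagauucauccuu
Mir124a-3, a copy of the neuronal miR-124 gene, measured 10.8 and 13.2 kb with 97.1% covered. Mir483 measured 11.4 and 27.4 kb, and Mir190a, one of the 4 without the same gene, 8.39 and 1.94 kb. These regions say nothing of whether the mature microRNAs were made.

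Some members rest on sequences with near-identical copies, so their regions are uncertain. Besides Rn45s they include Bc1, a short RNA gene related to a repeat family, whose name was given to 10 regions in replicate 1 and 13 in replicate 2, and the major histocompatibility genes H2-K1 (7.69 and 9.24 kb), H2-Q1 (8.05 and 7.10 kb) and Gm8909 (19.4 and 15.7 kb). On the X chromosome there were 7 members (0.770%), beside 1.30% of all promoter regions. Further regions of any class named the member's gene in replicate 1 for 317 members (34.9%), and in both replicates for 233 (25.6%), so a member is in these cases 1 of several marked stretches of its gene.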

How the data were processed

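Genomic DNA from H2AK119ub immunoprecipitation was measured in 2 libraries of 1 group. For each replicate the authors deposited a list of called regions, with first and last coordinates in mm10, a location class and gene names, per the file headers. Regions were thus called per sample. The submitters' processing notes name Bowtie2 2.3.3 and SAMtools 0.1.19 and state no role for either. How regions were called, whether the input entered, the coordinate base and the class definitions were not given in the sources used here. Depth is unknown, so no precision per region can be stated.

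Members were selected and compared in Python 3.11.15 (pandas 2.3.3, numpy 2.4.6, scipy 1.17.1). The overlap functions were tested on simulated data. Width is end minus start, and the replicate 2 width is that of the widest overlapping region. Names were matched to RefSeq genes of GRCm38.p6 by symbol, then by unique synonym (894 of 895 matched). The gene table has no strand, so either gene end was used in place of the start, and the planned CpG summary was void. Members and gene lists were chosen with earlier results of these data known. Named genes were, per family, up to 5 members with the largest smaller width of both replicates, the extremes of edge agreement, width ratio and CpG ratio, those beside the width limits, and a preset gene list; a few of these are not reported here. Alternatives varied overlap, width limits and replicate.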

Additional observations from a re-analysis of the deposited data

How the results depend on the processing

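Over 12 results, 103 alternative values were computed, of which 83 stayed within the interval or within 1.5-fold of the count, 20 did not and 0 reversed. Requiring overlap of at least 50% of the region left 677 members, with the same gene in 96.5%, a median width ratio of 0.938 and coverage of 85%. At 50% of both regions there were 607 members, and these values were 96.7%, 0.925 and 85.1%, with a gene end inside in 81.2%. Class shares then were 8.18% for transcription factors, 6.44% for cell surface and neural genes, 4.70% for matrix and epithelial genes and 5.71% for chromatin and growth control, beside 2.60% of all protein-coding genes. With the replicates exchanged (887 regions) the values were 93.1%, 1.08 for replicate 1 over replicate 2, and 88.5%. Summed widths gave a ratio of 0.866. Limits of 4 to 25 kb gave 13.9% of transcription factors, beside 4.72% of all protein-coding genes. Limits of 6 to 16 kb gave 7.48% of transcription factors and 6.98% of cell surface and neural genes, beside 3.06% of all protein-coding genes. Without replicate 1 in the rule there were 1130 members, with 18.4% of signalling and 9.67% of cell surface and neural genes. All protein-coding genes then stood at 4.77%. Without replicate 2 there were 1185 members, with 15.4% of signalling and 12% of cell surface and neural genes. The share of all protein-coding genes was then 4.98%. In 0 alternatives did these 5 class shares fall to that of all protein-coding genes. The stricter overlaps select on coverage, so the rise in coverage follows from their construction. Requiring overlap of at least 50% of the region also dropped 74 of the 98 members without the same gene, since under 50% of their bases were covered. The rise in the share with the same gene is therefore tied to that requirement too. The cause of the other shifts was not tested. The CpG median and its alternatives were not run, since too few member genes have a promoter sequence. No paired analysis was possible because both libraries belong to 1 group. Without heights or counts, a region missing from 1 replicate cannot be told from one below the caller's threshold.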

Other observations

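Gene lists for another 3 pathways were drawn up after the members had been seen, so their counts are descriptions only. Of 9 genes for ligands and receptors of the GDNF family, which guide enteric and sensory neurons, 4 were members (44.4%, beside 3.84% of all protein-coding genes). The ligand Gdnf measured 14.1 kb in replicate 1 and 12.7 kb in replicate 2, and the co-receptors Gfra1 and Gfra2 measured 13.7 and 10.3 kb and 7.45 and 6.84 kb. The shared receptor Ret measured 15.2 and 5.0 kb, and its replicate 2 region was classed as gene body and covered 17.4% of the member. Of the other genes of this list, 1 had a broad region, 1 a narrow one and 1 a shared region naming several genes, and 2 were named by no region.

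Of 13 genes for retinoid binding, synthesis and breakdown, 2 were members (15.4%), both of them carriers of retinoic acid in the cell. Crabp1 measured 11.7 and 9.98 kb, and Crabp2 19.7 and 7.0 kb. Of 10 MAP kinase phosphatase genes, 2 were members. The Dusp4 regions measured 5.13 and 10.9 kb in replicate 1 and met regions of 3.94 and 9.04 kb in replicate 2, and Dusp7 measured 5.72 and 2.08 kb with 15.6% covered.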
